A study of Mus musculus with 12 samples.

Results

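Cultures labelled as lung endothelial cells of CD47 null mice were compared with cultures labelled the same way from wild-type mice, both of strain C57Bl/6, on 3 arrays each. These are 6 of the 12 arrays of the study, and they were chosen by their titles. The 3 arrays labelled CD47 null are called null_EC and the 3 labelled wild type WT_EC. Both were grown at 37 °C with 5% CO2 in EGM2, a growth medium made for endothelial cells, and total RNA was taken with TRIzol. The other arrays, used here only for reference levels, hold embryoid bodies (null_EB), which formed within 24 to 36 h after CD47 null cells passaged for 6 months were seeded without serum, and the embryonic stem cell line V6.5 (ESC), kept in 15% serum with the factor LIF at 1000 IU/ml. The passage of the WT_EC and null_EC cultures is not given in the sources used here. Nor do the labels say whether arrays of a group came from separate mice or cultures, so p-values measure only the spread between these samples, which may be technical.

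CD47 is a cell surface protein that nearly all cells carry. On the cell that bears it, it is a receptor for thrombospondin-1, a secreted matrix protein, and through it thrombospondin-1 restrains nitric oxide and VEGF receptor signalling in blood vessels. To phagocytes it is the ligand of SIRP alpha, a receptor that holds back engulfment. The comparison addresses how CD47 null cultures differ from wild-type ones, Myc and genes of cell renewal among them.

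Each gene has 1 log2 signal per array, so that a difference of 1 is 2-fold. Of 19938 genes, 588 (2.95%) passed an adjusted p below 0.05 in a limma fit to the 6 arrays and are called changed here. Among them 289 (1.45% of all genes) were higher and 299 (1.5%) lower in null_EC. The 588 included 324 genes (1.63%) at least 2-fold apart, whereas 593 other genes were 2-fold apart without passing. The median difference over all genes was 0.03, and 3358 genes had an unadjusted p below 0.05. With 3 arrays a group, the number of arrays limits the precision. Values of a gene are given in the order of the array numbers 1, 2 and 3, which name the samples and carry no order.

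Cd47 itself read 12.59, 11.29 and 12.48 on the WT_EC arrays and 10.97, 11.11 and 11.02 on the null_EC arrays. WT_EC 2 lay near the null_EC arrays, and the other WT_EC arrays lay more than 1 log2 unit above them. The mean was 2.12-fold lower in null_EC, a difference of -1.09 (SE 0.343) that did not pass the test (adjusted p 0.181, limma). It passed when WT_EC 2 was left out, at a difference of -1.50 with an adjusted p of 0.00297. The ESC arrays averaged 11.17, with a range of 10.96 to 11.33, and null_EB averaged 10.94. On this probe set every null_EC array lay below the ESC mean and within the ESC range. Which exons this probe set covers is not given in the sources used here, so its level does not test the deletion.

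Myc, a transcription factor of growth and cell division, read 11.06, 10.58 and 10.68 on the WT_EC arrays and 10.18, 10.02 and 10.14 on the null_EC arrays. All null_EC arrays lay below all WT_EC arrays, with a difference of -0.66 (SE 0.143) that did not pass (adjusted p 0.0766, limma). It passed without WT_EC 1 (-0.51, adjusted p 0.0334) and without WT_EC 2 (-0.75, adjusted p 0.0308). The null_EB mean was 10.87, within the range of the WT_EC arrays.

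The WT_EC arrays spread far more than the null_EC arrays. Taken gene by gene, the SD had a median of 0.213 among WT_EC arrays and of 0.0652 among null_EC arrays. Across all probe sets, pairs of WT_EC arrays correlated at 0.954 to 0.968 and pairs of null_EC arrays at 0.996 to 0.997. WT_EC 2 correlated with the null_EC arrays at 0.976 to 0.978, more closely than with WT_EC 1 (0.954) or WT_EC 3 (0.968). Array medians ran only from 7.66 to 7.75. Each WT_EC array is therefore given separately in what follows.

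The calls depended on single arrays. Without WT_EC 1, 2 or 3 the count of called genes was 1296, 2308 or 680. Leaving out null_EC 1 or null_EC 3 left 3 calls each time, and leaving out null_EC 2 left 78, among them 33 of the 117 called genes named by rule. Counts of called list members moved with them, mostly upward without WT_EC 1 or WT_EC 2. The same 3 genes survived both of the first losses. They were the chemokine Cxcl13 (adjusted p 0.0423 and 0.0253), the protease inhibitor Serpina3n and the homeobox gene Hoxc13. Every called gene named below is, with the exception of these, one whose call was lost without null_EC 1 and without null_EC 3, while its direction was kept. A direction cannot turn in this way where the groups do not overlap, so its being kept is no test.

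Markers of endothelial cells were examined first, since the label names that cell type. Of 34 core endothelial markers, 20 had a mean below 7.996, the median over all genes on the 6 arrays, in both groups. Levels more than 1 log2 unit above the highest ESC array were seen for 5, 4 and 8 of the 34 markers on WT_EC 1, 2 and 3 and for 4 on each null_EC array, where they were Kdr, Fli1, Cd34 and Ptprb. A marker that is high in ESC too can be missed by this count. Podxl, for one, read 8.59, 8.51 and 7.88 in WT_EC and 11.48, 11.28 and 11.19 in null_EC, against up to 10.58 in ESC. Pecam1 (CD31), a junction protein of all vessel linings, read 6.80, 6.46 and 7.56 in WT_EC and 6.57, 6.60 and 6.61 in null_EC, each below its ESC mean of 8.86. Tek, the angiopoietin receptor, read 6.57, 6.47 and 7.22 and 6.79, 6.76 and 6.89, also below its ESC mean of 8.67. Both ESC means are above 7.996, so a level below ESC alone says little, but both genes also read below 7.996 on all 6 arrays. For these defining markers the data go against the endothelial label on all 6 arrays.

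Other endothelial genes were high on some WT_EC arrays only. Cdh5, the cadherin of endothelial junctions, read 9.10, 6.85 and 9.52 in WT_EC and 7.27, 7.11 and 7.09 in null_EC, against an ESC mean of 6.97. Esam, another junction protein, read 10.34, 6.97 and 9.53 and 7.30, 7.25 and 7.37. Eng, a TGF beta co-receptor, read 10.29, 7.59 and 10.61 and 7.76, 7.77 and 7.93. In all 3 genes WT_EC 2 lay at or below the null_EC arrays while WT_EC 1 and 3 stood more than 1 log2 unit above them. None passed the test (adjusted p 0.397, 0.393 and 0.351, limma). The claudin Cldn5, the receptor Tie1 and the transcription factor Erg stayed within 1 log2 unit of their ESC means (7.93, 7.39 and 6.30) on all 6 arrays. In RNA from a whole culture, fewer cells of a type and less RNA per cell cannot be told apart.

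Of 27 markers typical of mesothelium, the lining of the lung surface, 14, 18 and 22 on the WT_EC arrays and 17, 19 and 18 on the null_EC arrays lay more than 1 log2 unit above ESC. The share of all genes that far above ESC is not given here. Such counts, for this and the other marker lists, therefore do not identify a cell type by themselves. The examples Upk3b and Msln were chosen after their values were seen. Upk3b, a membrane protein of mesothelium and bladder lining, read 11.06, 12.28 and 12.50 in WT_EC and 13.03, 13.06 and 13.04 in null_EC, against 7.75 in ESC. Msln, mesothelin, read 11.17, 11.50 and 12.35 and 12.15, 12.03 and 12.22, against 7.84. Neither passed between the groups (adjusted p 0.201 and 0.51). Among mesothelial markers, Gata4, a transcription factor, rose from 9.15, 9.89 and 9.46 to 10.74, 10.67 and 10.66 (difference 1.19, SE 0.188, adjusted p 0.0311, limma). Wnt4, a secreted Wnt ligand, rose by 0.91 (adjusted p 0.0351). Both calls were lost without WT_EC 3 (adjusted p 0.0668 and 0.0694).

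Markers of other cells set WT_EC 3 apart. Macrophage and monocyte markers more than 1 log2 unit above ESC numbered 33 of 42 on WT_EC 3, 11 on WT_EC 1, 5 on WT_EC 2 and 5 or 6 on the null_EC arrays. The median over these 42 markers was 7.62, 6.53 and 9.18 on the WT_EC arrays and 6.61 to 6.71 on the null_EC arrays. Adgre1 (F4/80), a defining macrophage receptor, read 6.90, 5.53 and 10.07 in WT_EC and 5.48, 5.64 and 5.78 in null_EC. Ptprc (CD45), carried by all white blood cells, read 6.48, 6.24 and 9.01 and 6.29, 6.42 and 6.43. Both were near their ESC means of 5.69 and 6.28 on every null_EC array. Fibroblast markers above ESC numbered 9, 10 and 22 of 35 on the WT_EC arrays and 6 to 8 on the null_EC arrays, and lymphatic endothelial markers 3, 0 and 9 of 13 against 2 on each null_EC array. The part of these cell markers in the differences below was not tested.

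**Figure D1:**
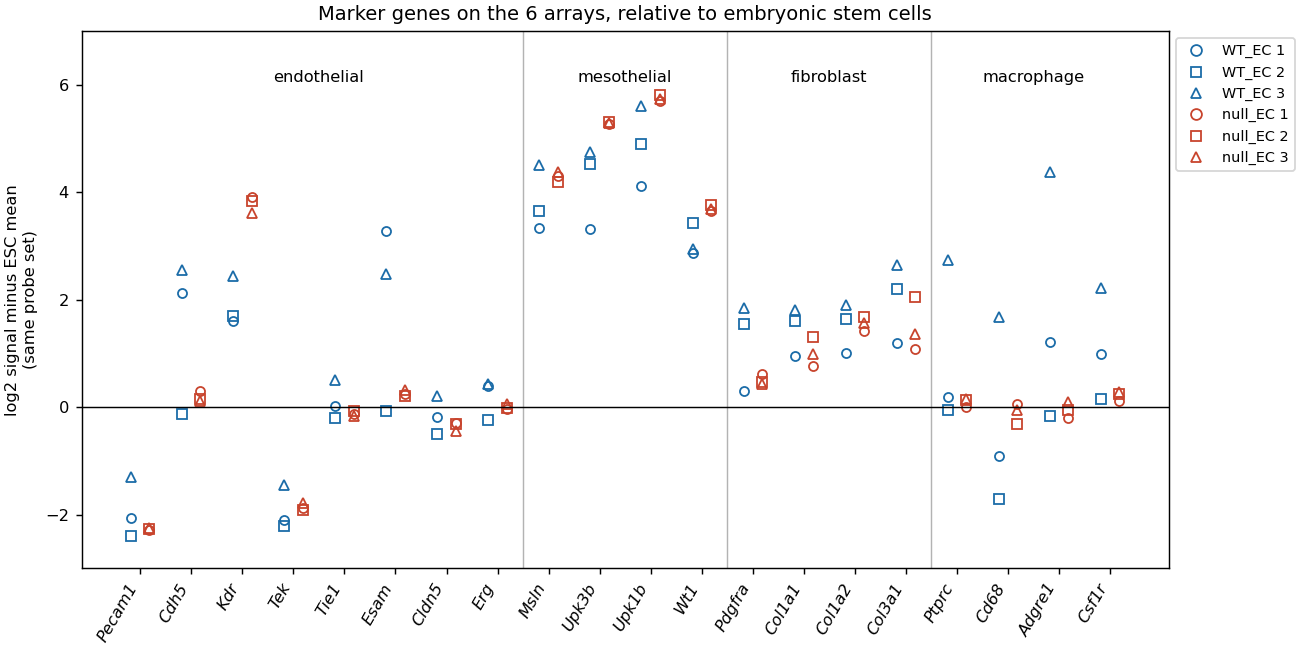
Log2 signal of marker genes of 4 cell types on the 6 arrays, minus the mean of the 3 ESC arrays on the same probe set, which the horizontal line at 0 marks. Blue symbols are WT_EC arrays, red symbols null_EC arrays and the symbol shape gives the array number. Mesothelial genes lie above the line on all 6 arrays, Pecam1 and Tek below it, and the 4 macrophage genes are highest on WT_EC 3.

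Of the 12 largest decreases, 4 were in secreted proteins of inflammation and innate defence. Cxcl13, a chemokine that attracts B cells, read 12.31, 13.01 and 12.99 on the WT_EC arrays and 6.71, 7.04 and 6.73 on the null_EC arrays. It fell by 5.95 (SE 0.215), or 61.7-fold (adjusted p 0.00181, limma), and this was the largest difference between called genes. Serpina3n, an acute-phase inhibitor of serine proteases, read 13.42, 13.28 and 13.78 and 9.02, 9.40 and 8.88, 21.0-fold lower (difference -4.39, SE 0.189, adjusted p 0.00185). The WT_EC arrays lay close together for both genes, with SDs of 0.396 and 0.259. Lcn2, which withholds iron from bacteria by binding their siderophores, read 13.16, 13.04 and 12.51 and 8.52, 9.15 and 8.60, 17.7-fold lower (adjusted p 0.00382). Ptx3, a pattern recognition protein of innate defence, read 11.49, 9.09 and 10.48 and 6.95, 6.93 and 7.01, 10.5-fold lower (adjusted p 0.0374). Its WT_EC arrays were widely spaced: the difference was -4.03 without WT_EC 2, and the call was lost without WT_EC 3 (adjusted p 0.0781).

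The 12 largest decreases also included the genes that follow. Fmo2, the lung form of flavin monooxygenase, read 10.46, 9.98 and 13.18 in WT_EC and 6.27, 6.59 and 6.34 in null_EC (difference -4.81, SE 0.808, adjusted p 0.0389, limma). WT_EC 3 was the highest array by far, and the difference was -3.82 without it and -5.42 without WT_EC 2. Cybb, the catalytic subunit of the phagocyte NADPH oxidase, read 9.56, 10.004 and 11.70 and 6.55, 6.66 and 6.53 (difference -3.84, adjusted p 0.0219). Here too WT_EC 3, the array rich in macrophage markers, was highest, and the difference was -3.20 without it. The part of macrophage markers in the Cybb difference was not tested. Fgf7, a growth factor that stromal cells supply to epithelium, read 11.22, 10.45 and 10.73 and 6.61, 7.09 and 6.80, 15.6-fold lower (adjusted p 0.00382). Adam23, a membrane protein of the ADAM family without protease activity, read 10.47, 10.46 and 11.29 and 6.72, 6.73 and 6.61, 16.7-fold lower (adjusted p 0.00382). For these last 2 genes all arrays of a group lay within 1 log2 unit of each other.

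Folh1, a cell surface carboxypeptidase that splits glutamate from folates and peptides, fell by 3.83 (adjusted p 0.00622) and Rapgef5, which activates the GTPase Rap, fell by 3.79 (adjusted p 0.00847). Slc10a6, a transporter of sulphated steroids, fell by 3.61 (adjusted p 0.0205) and Ebf1, a transcription factor of B cells and fat cells, fell by 3.51 (adjusted p 0.0311, limma). Ebf1 read 10.39, 9.20 and 11.53 in WT_EC and its call was lost without WT_EC 1 (adjusted p 0.0505). All 12 genes of largest decrease had a null_EB mean below every WT_EC array. That mean was 6.21 for Cxcl13, 5.95 for Fmo2, 9.37 for Serpina3n, 6.79 for Lcn2, 6.71 for Adam23 and 7.01 for Fgf7. It was 7.14 for Cybb, 5.26 for Folh1, 5.81 for Rapgef5, 7.08 for Slc10a6, 6.45 for Ebf1 and 6.97 for Ptx3. In ESC, Serpina3n averaged 11.36, Adam23 11.11, Ebf1 9.43, Fgf7 9.13 and Rapgef5 9.11, and the other 7 genes lay below 7.996.

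Both GABA receptor subunits described here were among the 12 largest increases. Gabrb1, which encodes a beta subunit of GABA-gated chloride channels, read 6.99, 7.05 and 6.32 on the WT_EC arrays and 10.61, 10.71 and 10.76 on the null_EC arrays. It was 15.0-fold higher (difference 3.91, SE 0.205, adjusted p 0.00381, limma). Gabra4, another subunit of the same receptor family, read 7.64, 8.42 and 6.45 and 10.31, 10.33 and 10.14 (difference 2.75, adjusted p 0.0399). The groups stood well apart for both, although the WT_EC arrays of Gabra4 spanned nearly 2 log2 units, and its call was lost without WT_EC 1 (adjusted p 0.0545). Kcnd2, a pore subunit of a rapidly inactivating potassium channel, rose by 2.18 (adjusted p 0.024), a call lost without WT_EC 3 (adjusted p 0.0529). Of the 50 genes in the list of GABA receptors and ion channels, the GABA receptor genes Gabrb1 and Gabra4 were the 2 called. The list median was -0.17, and 2.95% of all genes were called.

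Several of the rising genes encode cell surface proteins. Podxl, a sialomucin of podocytes and vessel linings, read 8.59, 8.51 and 7.88 in WT_EC and 11.48, 11.28 and 11.19 in null_EC, 7.94-fold higher (adjusted p 0.0049). Adgrg1 (GPR56), an adhesion receptor coupled to G proteins, read 8.24, 8.65 and 8.78 and 11.58, 11.58 and 11.42, 7.83-fold higher (adjusted p 0.00381). Cd200, which restrains myeloid cells through its receptor, read 7.88, 9.16 and 8.64 and 10.95, 10.98 and 10.86, 5.16-fold higher (adjusted p 0.0189, limma). The groups were separate for all 3 genes, most narrowly for Cd200. Itm2a, an integral membrane protein, read 6.72, 8.73 and 8.48 and 11.59, 11.77 and 11.72 (difference 3.71, adjusted p 0.0223). WT_EC 1 was the lowest array for Itm2a, and the difference was 3.09 without it. Prss12, a secreted serine protease of neurons, rose by 2.30 (adjusted p 0.00533), and Klhl30, a member of the Kelch family, by 2.16 (adjusted p 0.0128).

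Every one of the 12 rising genes had a null_EB mean between its WT_EC and null_EC means. The null_EB means were 9.08 for Gabrb1, 8.98 for Itm2a, 8.42 for Podxl, 9.07 for Adgrg1, 8.43 for Emx2 and 8.54 for Gabra4. They were 9.41 for Cd200, 6.48 for Lgr5, 9.89 for Prss12, 8.46 for Hoxc13, 8.76 for Kcnd2 and 7.80 for Klhl30. Those of Podxl and Lgr5 lay closest to the WT_EC mean. In ESC, Podxl averaged 10.57, Itm2a 9.08 and Adgrg1 8.90, and the other 9 genes lay below 7.996. An unnamed transcript, E330013P04Rik, had the largest increase of all (8.17, 7.08 and 9.35 in WT_EC and 12.12, 12.32 and 12.13 in null_EC, adjusted p 0.0204). It falls outside the rule for named genes and was singled out after its values were seen.

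**Figure D2:**
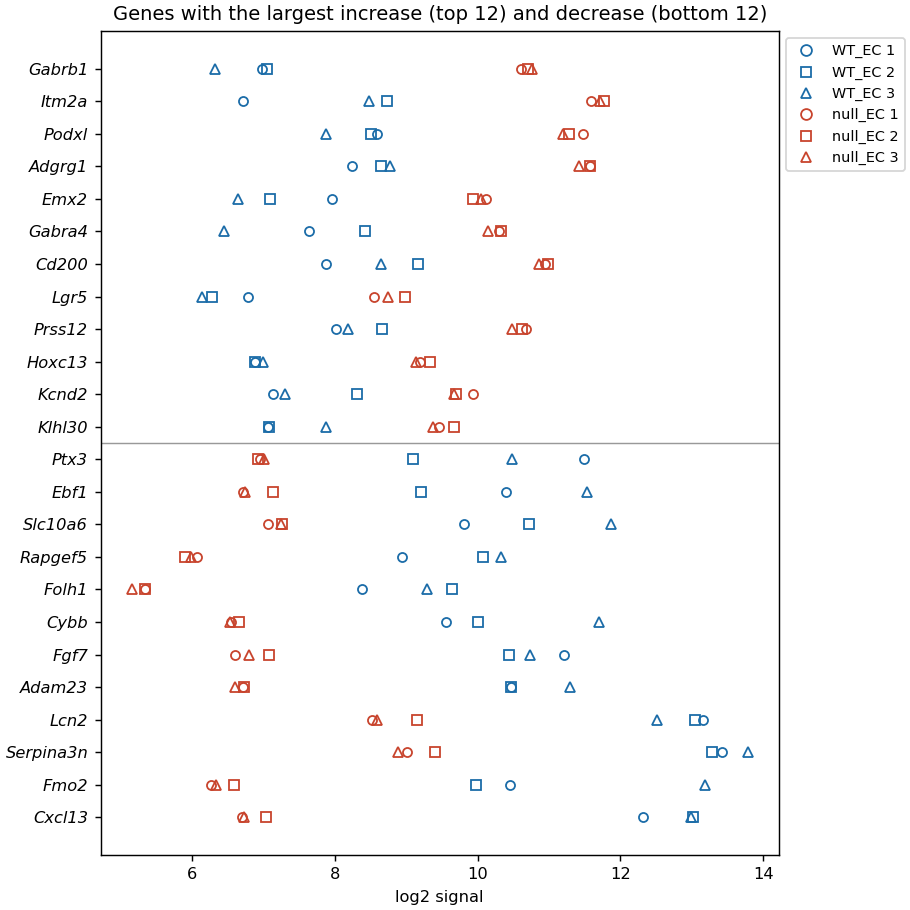
Log2 signal of the 12 called genes with the largest increase (above the line) and the 12 with the largest decrease (below it), from each gene's probe set on 6 arrays. Blue symbols are WT_EC arrays, red symbols null_EC arrays and shapes give array numbers. The groups do not overlap for any of the 24 genes, as the rule required, and the WT_EC symbols are more widely spaced, as for Fmo2 (10.46, 9.98 and 13.18).

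**Figure D3:**
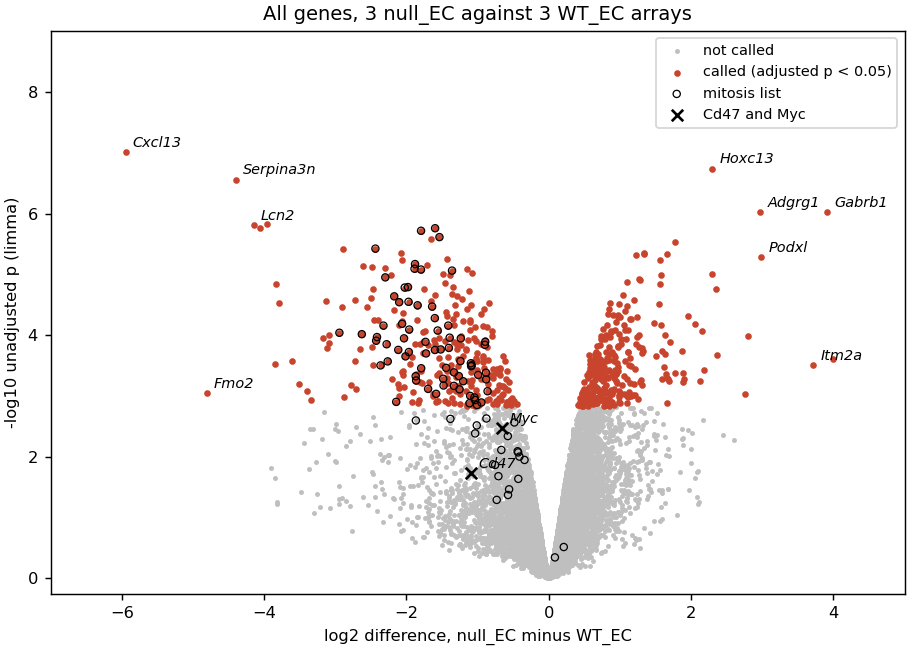
Log2 difference between the groups (null_EC minus WT_EC, horizontal) against the negative log10 of the unadjusted limma p (vertical) for 19938 genes. Red points are the 588 called genes, grey points the others, and black rings mark the mitosis list. Of the 90 rings, 70 surround called genes to the left of 0, and Cd47 and Myc, marked with crosses, were not called.

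Genes of mitosis were lower in null_EC. Mitosis needs cyclin-dependent kinase activity to start, condensins and topoisomerase to compact chromosomes, kinetochores and spindle motors to move them, and a checkpoint that delays separation until all are attached. Most genes of this machinery are transcribed late in the cell cycle, so their RNA is abundant in dividing cultures. Of 90 measured genes of this list, 70 (77.8%) fell and 20 were not called, where 1.5% of all genes fell. The median difference was -1.43 beside 0.03 over all genes. Members whose groups did not overlap, with all WT_EC arrays above, numbered 86, where 8.88% of all genes showed that order.

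The promoters of 4 of these genes are shown because late cell cycle genes are known for 2 short elements near their starts, the CHR (TTTGAA) and the CCAAT box (CCAAT), each read on both strands. The 4 were picked after the values were seen, as called members with large decreases, a single RefSeq start and both elements. Each line gives the 250 bases before the start in RefSeq's GRCm38.p6 annotation on the gene's strand, 5′ to 3′, with matches of either element in capitals. Mki67 lies at chr7:135716380-135716629 (minus strand), Top2a at chr11:99024190-99024439 (minus strand), Ncapg at chr5:45669675-45669924 (plus strand) and Kif11 at chr19:37376132-37376381 (plus strand).
Mki67: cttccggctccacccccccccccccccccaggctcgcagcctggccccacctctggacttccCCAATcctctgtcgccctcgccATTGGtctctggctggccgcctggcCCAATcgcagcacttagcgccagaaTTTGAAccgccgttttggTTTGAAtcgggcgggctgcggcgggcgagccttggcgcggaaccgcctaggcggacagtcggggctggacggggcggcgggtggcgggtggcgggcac
Top2a: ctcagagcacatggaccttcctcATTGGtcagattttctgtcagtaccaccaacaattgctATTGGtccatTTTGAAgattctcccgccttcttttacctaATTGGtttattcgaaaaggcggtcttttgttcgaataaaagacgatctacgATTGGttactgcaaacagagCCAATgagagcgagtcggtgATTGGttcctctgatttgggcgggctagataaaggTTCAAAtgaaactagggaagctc
Ncapg: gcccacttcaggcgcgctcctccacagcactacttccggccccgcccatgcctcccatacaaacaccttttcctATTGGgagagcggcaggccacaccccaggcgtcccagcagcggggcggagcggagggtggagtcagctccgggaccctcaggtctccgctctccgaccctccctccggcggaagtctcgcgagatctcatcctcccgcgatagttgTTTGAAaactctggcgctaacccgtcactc
Kif11: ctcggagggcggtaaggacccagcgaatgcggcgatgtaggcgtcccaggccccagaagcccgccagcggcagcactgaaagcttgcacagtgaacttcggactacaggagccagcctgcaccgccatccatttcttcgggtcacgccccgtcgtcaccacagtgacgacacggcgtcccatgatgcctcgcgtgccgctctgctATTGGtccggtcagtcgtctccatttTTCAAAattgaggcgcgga
Among the 84 such windows of 76 measured mitosis genes found in the promoter table, 36.9% held the CHR letters, 66.67% the CCAAT letters and 29.76% both. In the 67 windows of the 61 called among them these shares were 37.31%, 68.66% and 31.34%. The shares over all 32851 windows of this length were 15.99%, 33.85% and 5.549%. A match of letters is a description and not a site of binding.

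Genes of chromosome structure are described first. Mki67 (Ki-67), which coats mitotic chromosomes and is the common marker of dividing cells, read 10.36, 9.67 and 10.62 in WT_EC and 7.66, 8.16 and 7.59 in null_EC. Its difference was -2.41 (SE 0.278, adjusted p 0.0143, limma). Top2a, the topoisomerase that untangles sister DNA, read 10.29, 10.03 and 10.40 and 7.67, 8.46 and 7.61 (difference -2.32, adjusted p 0.0116). Ncapg, a condensin subunit, read 8.87, 8.49 and 8.86 and 6.24, 6.77 and 6.33 (difference -2.30, adjusted p 0.00558). In these genes WT_EC 2 was the lowest WT_EC array and null_EC 2 the highest null_EC array, without overlap. Of 10 genes of chromosome condensation and cohesion 8 fell, with a median difference of -1.62. Smc4 and Cdca5 were not called.

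Spindle motors and microtubule proteins fell in 19 of 22 cases (median -1.62). Prc1, which bundles the central spindle, read 9.64, 9.55 and 9.98 in WT_EC and 7.17, 7.52 and 7.16 in null_EC (difference -2.44, SE 0.160, adjusted p 0.00476, limma). Kif11, the motor that pushes spindle poles apart, read 9.60, 9.73 and 10.09 and 7.40, 8.09 and 7.09 (difference -2.28, adjusted p 0.0155). Hmmr, a spindle assembly protein that also binds hyaluronan, read 8.38, 7.68 and 8.87 and 5.77, 6.34 and 5.72 (difference -2.36, adjusted p 0.0223). Null_EC 2 was the highest null_EC array for all 3. Cytokinesis genes fell in 7 of 9 cases (median -1.79). Anln, a scaffold of the contractile ring, fell by 2.14 (adjusted p 0.0462). Racgap1, part of the centralspindlin complex, read 9.92, 9.92 and 10.05 and 8.43, 8.41 and 8.26 and had among the smallest p of all genes (difference -1.60, SE 0.0925, adjusted p 0.00382).

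Kinases and their cyclins fell in 12 of 15 cases (median -1.48). Ccna2, cyclin A2, which drives S phase and entry to mitosis, read 10.92, 10.25 and 11.08 in WT_EC and 7.91, 8.63 and 7.83 in null_EC (difference -2.63, SE 0.297, adjusted p 0.0138, limma). Plk1, a kinase of spindle and centrosome, read 9.91, 9.16 and 10.14 and 7.47, 7.84 and 7.56 (difference -2.11, adjusted p 0.0171). Aurkb, the kinase of the chromosomal passenger complex, read 10.81, 9.31 and 10.37 and 8.20, 8.59 and 8.09 and was not called (adjusted p 0.0666). The groups were separate for each of these, and the WT_EC arrays spread most for Aurkb.

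The spindle checkpoint and the trigger of anaphase had 8 of 11 genes that fell (median -1.33). Bub1, a checkpoint kinase, had the largest decrease of the list. It read 9.84, 8.84 and 9.63 in WT_EC and 6.11, 6.99 and 6.37 in null_EC (difference -2.94, SE 0.330, 7.69-fold, adjusted p 0.0134, limma). Mad2l1, the checkpoint protein MAD2, read 10.93, 9.93 and 10.76 and 8.61, 8.92 and 8.47 (difference -1.87, adjusted p 0.0263). Bub3, Espl1 and Pttg1 were not called. Of 19 kinetochore and centromere genes 14 fell (median -1.25). Nuf2, of the outer kinetochore complex that grips microtubules, read 9.14, 8.58 and 9.46 and 6.55, 7.07 and 6.28 (difference -2.43, adjusted p 0.0147). Cenpe, a kinetochore motor, fell by 2.26 (adjusted p 0.0205). Among 4 transcription factors and other genes, Foxm1, a transcription factor of late cell cycle genes, fell by 1.24 (adjusted p 0.0205) and Cdca3 also fell, while Mybl2 (difference -0.75, adjusted p 0.156) and Ube2t did not pass. The examples given by role were taken after their values were seen.

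The mitosis genes differed in degree among arrays. The median over the list was 8.75, 8.47 and 8.84 on the WT_EC arrays and 7.17, 7.44 and 7.20 on the null_EC arrays. Each WT_EC array had 88 of the 90 members above every null_EC array, and those more than 1 log2 unit above numbered 67, 42 and 65. Of all 19938 genes, 721, 510 and 871 lay that far above on WT_EC 1, 2 and 3. WT_EC 2, whose profile was the nearest to null_EC across all probe sets, was the lowest WT_EC array in 66 members. Null_EC 2 was the highest null_EC array in 70. In all 90 members every ESC array lay above every null_EC array, and 87 had a null_EB mean above the null_EC mean. The shares of all genes with these orders, with a single WT_EC array above null_EC, or with array 2 lowest or highest in its group are not given here. These counts therefore do not show a trait particular to mitosis genes. Without WT_EC 1, 2 or 3, 73, 80 or 54 members fell, where 3.27%, 4.74% or 1.67% of all genes fell. Without null_EC 2, 23 members and 0.286% of all genes fell. Without null_EC 1 or null_EC 3 none of the members and 0.01% of all genes passed in limma, with 83 members at an unadjusted p below 0.05 in each. In each of these fits 88 of 90 differences were below 0. For the 86 members without overlap no such fit could have reversed the difference, so this count is no further support.

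**Figure D4:**
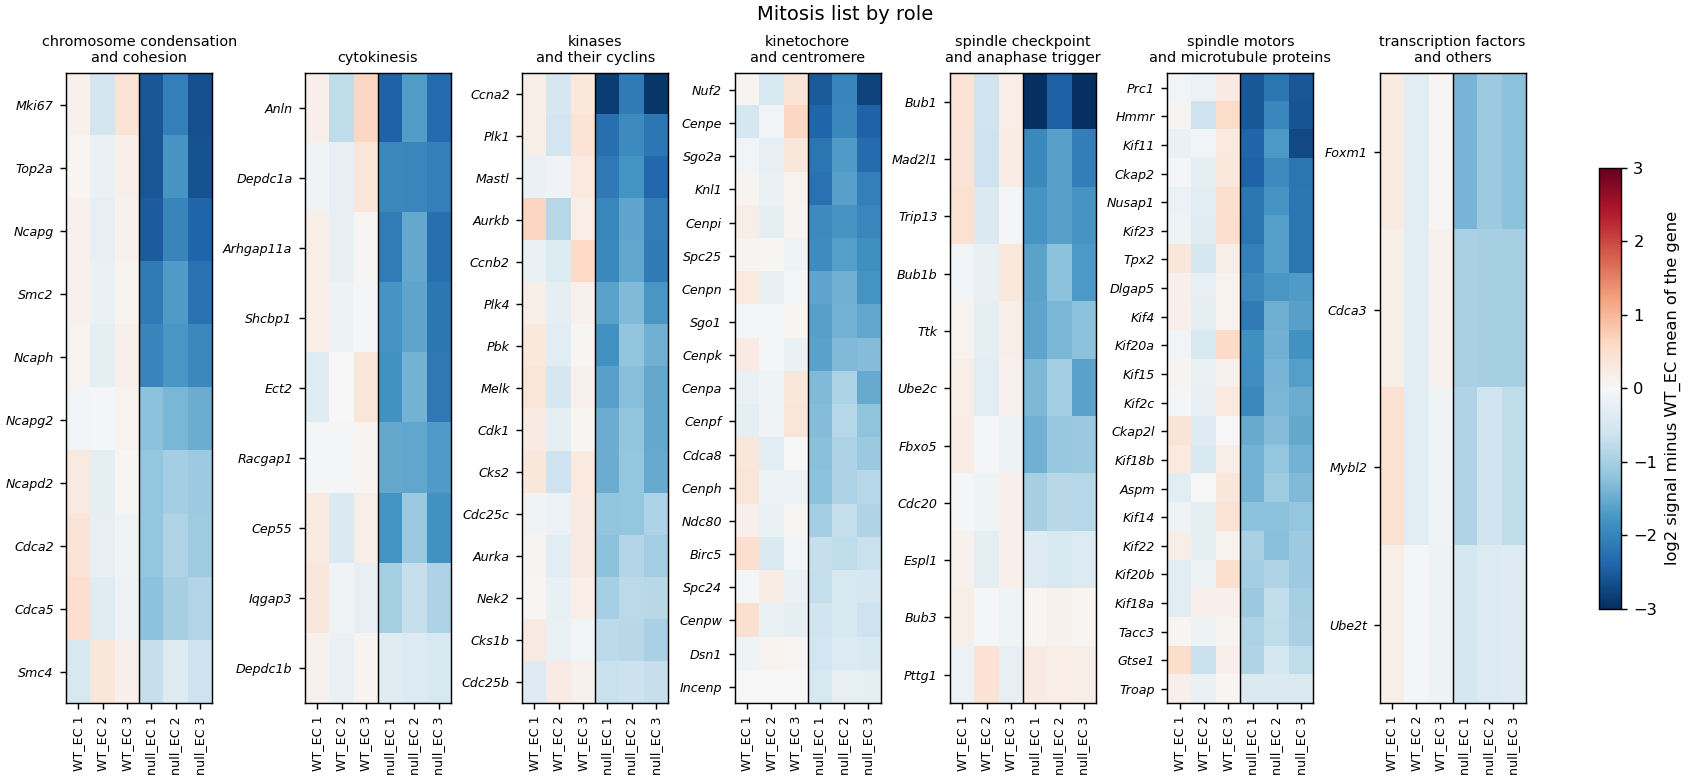
Log2 signal of the 90 mitosis genes on each array minus the gene's WT_EC mean, as colour (blue lower, red higher, scale from -3 to 3), grouped by role. In each panel the 3 columns left of the vertical line are WT_EC arrays and the 3 right of it null_EC arrays. In 86 genes all null_EC cells are bluer than all WT_EC cells, and in 70 null_EC 2 has the highest signal of the null_EC columns.

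DNA replication and repair genes showed smaller decreases. Of 55 replication genes 9 fell, beside 1.5% of all genes, with a median of -0.70. The groups were separate with WT_EC above in 43, beside 8.88% of all genes. Without WT_EC 1, 2 or 3 the count of 9 was 22, 15 or 15, where 3.27%, 4.74% or 1.67% of all genes fell. With all 12 arrays in the fit it was 37, where 5% of all genes fell. Pole, the catalytic subunit of DNA polymerase epsilon, read 9.86, 8.70 and 8.69 in WT_EC and 6.65, 7.08 and 6.89 in null_EC (difference -2.21, SE 0.337, adjusted p 0.028, limma). Dtl, which marks the licensing factor CDT1 for destruction, read 9.20, 8.82 and 8.71 and 6.77, 6.91 and 6.88 (difference -2.06, adjusted p 0.00491). E2f8, a repressor of the E2F family, read 9.14, 7.94 and 8.65 and 6.47, 6.72 and 6.36 (difference -2.06, adjusted p 0.0248), a call lost without WT_EC 3 (adjusted p 0.057). For Pole and E2f8 the WT_EC arrays were spread over more than 1 log2 unit, whereas those of Dtl lay close together.

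Of 33 repair genes 11 fell and 1 rose, beside 1.5% and 1.45% of all genes. Without WT_EC 1, 2 or 3 the count that fell was 17, 17 or 10, where 3.27%, 4.74% or 1.67% of all genes fell. Neil3, a glycosylase that removes oxidised bases, read 8.87, 9.43 and 9.01 in WT_EC and 6.73, 7.37 and 7.0002 in null_EC (difference -2.06, SE 0.214, adjusted p 0.0109, limma). Chek1, the kinase of the replication checkpoint, read 9.61, 9.12 and 9.50 and 7.78, 7.86 and 7.62 (difference -1.66, adjusted p 0.00847). Parpbp, an inhibitor of homologous recombination, fell (difference -1.50, adjusted p 0.0223). Msh6, a mismatch recognition protein, rose from 8.34, 8.50 and 8.19 to 9.31, 9.14 and 9.06 (difference 0.82, adjusted p 0.024). Among 25 cyclins and inhibitors of cyclin-dependent kinases 3 fell. Ccnd1, cyclin D1, which links growth signals to the cell cycle, read 12.22, 11.09 and 11.38 and 9.94, 10.07 and 9.93 (difference -1.58, adjusted p 0.0464), a call lost without WT_EC 3 (adjusted p 0.0723). Rbl1, the pocket protein p107, fell by 1.16 (adjusted p 0.0173), and Cdkn3, a phosphatase of CDK2, fell by 1.34 (adjusted p 0.0468).

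Genes of cytokines, chemokines, complement and NF-kappaB signalling fell in part, and none of these 4 lists had a gene that rose in the fit of the 6 arrays, beside 1.5% of all genes lower and 1.45% higher. Of 41 cytokines and acute-phase genes 6 fell (median -0.41), of 33 chemokines 3 (median -0.49), of 19 complement genes 3 (median -0.43) and of 32 genes of NF-kappaB and toll-like receptor signalling 5 (median -0.68). Without WT_EC 1, 2 or 3 these counts were 10, 9 or 5 for cytokines, 4, 8 or 6 for chemokines, 4, 7 or 2 for complement and 6, 10 or 7 for NF-kappaB signalling. Over all genes, 3.27%, 4.74% or 1.67% fell in these fits. A single cytokine list gene rose without WT_EC 2 or WT_EC 3, and a single complement gene without WT_EC 2. C4b, a complement component that marks surfaces for attack, read 10.16, 10.85 and 10.70 in WT_EC and 8.08, 8.11 and 8.06 in null_EC (difference -2.49, SE 0.183, adjusted p 0.00519, limma). Cfb, factor B of the alternative complement pathway, read 9.998, 9.46 and 9.38 and 7.42, 7.34 and 7.41 (difference -2.22, adjusted p 0.00533). The groups lay more than 1 log2 unit apart for both. C4a fell by 0.79 (adjusted p 0.0387), and C4a and C4b are near-identical copies whose signals may share probes. The C4a call was lost without WT_EC 3 (adjusted p 0.0645).

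Icam1, the leukocyte adhesion molecule induced by NF-kappaB, read 11.43, 10.30 and 10.12 in WT_EC and 8.64, 8.42 and 8.46 in null_EC (difference -2.11, SE 0.343, adjusted p 0.0346, limma). Birc3, an inhibitor of apoptosis downstream of TNF receptors, read 10.47, 10.51 and 10.15 and 8.86, 8.97 and 8.90 (difference -1.46, adjusted p 0.00622). Nfkbia, the inhibitor that NF-kappaB induces against itself, read 11.34, 11.58 and 10.77 and 9.90, 10.08 and 9.96 (difference -1.25, adjusted p 0.0393). No WT_EC array reached down to a null_EC array in these genes, though the Nfkbia call was lost without WT_EC 1 (adjusted p 0.057). Ccl9, a chemokine of myeloid cells, fell by 2.06 (adjusted p 0.0241), a call lost without WT_EC 3 (adjusted p 0.0521). Ackr3, a scavenging chemokine receptor, fell by 0.69 (adjusted p 0.024). Steap4, an iron and copper reductase induced by cytokines, fell by 2.61 (adjusted p 0.00519). The macrophage marker medians given above were high on WT_EC 3 and to a lesser extent on WT_EC 1. Among the WT_EC arrays, WT_EC 3 was the lowest for Icam1, Birc3, Nfkbia and Steap4. WT_EC 2 was the highest for Birc3, Nfkbia, Ccl9 and Steap4, and WT_EC 1 for Icam1 and Ackr3. The part of macrophage markers in the falls of these genes was not tested.

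Of 46 interferon response genes 2 fell, beside 1.5% of all genes, and the list median was -0.77. The array medians of this list were 9.50, 10.77 and 9.03 in WT_EC and 8.85 to 8.93 in null_EC, so WT_EC 2 stood highest. Slfn5, of the Schlafen family, read 8.40, 9.22 and 9.61 and 6.35, 6.46 and 6.50 (difference -2.64, SE 0.298, adjusted p 0.0137, limma). Ifitm3, which blocks entry of viruses, fell by 0.70 (adjusted p 0.0319). Of 21 antigen presentation genes none was called in limma, with 3 at an unadjusted p below 0.05. H2-Q4, a class Ib molecule, read 9.35, 11.60 and 8.65 in WT_EC and 8.97, 8.71 and 8.96 in null_EC, highest on WT_EC 2.

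The CD47 and thrombospondin pathway was examined over 25 genes, of which 1 fell, beside 1.5% of all genes. Sirpa, SIRP alpha, the partner of CD47 on phagocytes, read 10.30, 10.28 and 10.63 in WT_EC and 9.25, 8.80 and 9.15 in null_EC (difference -1.34, SE 0.159, adjusted p 0.0149, limma). Thbs1, thrombospondin-1, the ligand, read 13.66, 12.77 and 13.44 and 12.12, 12.26 and 12.07 and did not pass (difference -1.14, adjusted p 0.0647). Cd36, another thrombospondin receptor, read 6.02, 6.65 and 9.18 and 4.83, 4.73 and 4.83 (difference -2.49, adjusted p 0.177). For Sirpa, Thbs1 and Cd36 each WT_EC array was above each null_EC array, and WT_EC 3 was by far the highest array for Cd36. The integrin subunits Itgav (difference -0.03) and Itgb1 (-0.06) and the receptor Lrp1 (0.07) were near 0. The genes Thbs1, Cd36 and the integrins were named for their place in the pathway, outside the rule. None of 32 genes of nitric oxide and cyclic nucleotide signalling was called in limma, with 7 at an unadjusted p below 0.05 and a list median of -0.40. Nos2, the inducible nitric oxide synthase, was high on WT_EC 1 alone (10.20, 6.95 and 6.67), and Nos1, a neuronal form, had a difference of -0.09. The pathway of fibroblast growth factors had 1 called gene of 29, Fgf7.

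Vascular growth factors and receptors moved both ways, with 3 of 36 higher and 4 lower, beside 1.45% and 1.5% of all genes. Kdr (VEGFR2), the main signalling receptor for VEGF, read 8.51, 8.61 and 9.35 in WT_EC and 10.83, 10.74 and 10.52 in null_EC (difference 1.88, SE 0.238, adjusted p 0.0177, limma). Flt1 (VEGFR1), which holds VEGF away from that receptor, read 10.05, 9.42 and 10.17 and 8.30, 8.64 and 8.43 (difference -1.42, adjusted p 0.0275), a call lost without WT_EC 3 (adjusted p 0.0516). The groups did not overlap for either receptor, in opposite directions. Kdr averaged 7.34 in null_EB. Vegfc, the growth factor of lymphatic vessels, fell by 1.45 (adjusted p 0.00947), and Vegfa, not called, read 12.45, 11.20 and 10.66 and 12.03, 11.87 and 11.99.

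The peptide adrenomedullin and its receptor both fell. Adm, a dilator of vessels that hypoxia induces, read 12.18, 10.30 and 12.71 in WT_EC and 8.34, 8.44 and 8.40 in null_EC (difference -3.34, SE 0.592, adjusted p 0.045, limma). WT_EC 2 was the lowest of the WT_EC arrays, and the Adm difference was -4.05 without it. Without WT_EC 1 or 3 its call was lost (adjusted p 0.0675 and 0.0642). Calcrl, its receptor, read 10.15, 9.79 and 9.34 and 7.41, 6.88 and 7.35 (difference -2.55, adjusted p 0.00865). Ramp1, a partner that turns this receptor toward the peptide CGRP, rose by 0.85 (adjusted p 0.00906), and Angpt4, an angiopoietin, by 1.47 (adjusted p 0.0112). Among other vessel markers, Thbd, the anticoagulant receptor thrombomodulin, rose from 10.97, 10.54 and 10.35 to 12.01, 11.95 and 11.87 (difference 1.32, adjusted p 0.0177). Notch1, a receptor of arterial fate, fell by 1.17 (adjusted p 0.0374, limma). It was the 1 called gene of 25 in the Notch pathway, where 2.95% of all genes were called.

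Wnt pathway genes rose in 5 cases and fell in 1 of 48, beside 1.45% and 1.5% of all genes. The list median was 0.02. Lgr5, a receptor for R-spondins and a Wnt target in stem cells of several epithelia, read 6.78, 6.28 and 6.14 in WT_EC and 8.55, 8.98 and 8.74 in null_EC (difference 2.35, SE 0.199, adjusted p 0.00674, limma). Axin2, a feedback inhibitor that Wnt signals induce, read 7.51, 7.84 and 7.50 and 8.99, 8.57 and 8.73 (difference 1.15, adjusted p 0.0197). Wnt5a, a secreted ligand, read 9.40, 9.56 and 9.31 and 10.61, 10.54 and 10.43 (difference 1.10, adjusted p 0.00847). All arrays of a group lay close for these 3 genes, and the groups were apart. Wnt2b, another ligand, fell by 0.44 (adjusted p 0.0475), a call lost without WT_EC 3 (adjusted p 0.0781).

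Hox genes, which encode position along the body axis, rose in 4 of 37 cases, beside 1.45% of all genes. In 17 of them all null_EC arrays lay above all WT_EC arrays, an order that 16.7% of all genes showed. The list median was 0.38. Without WT_EC 1, 2 or 3 the count of 4 was 7, 11 or 5, where 3.24%, 6.84% or 1.75% of all genes rose. Hoxc13 read 6.89, 6.88 and 6.99 in WT_EC and 9.20, 9.33 and 9.13 in null_EC (difference 2.30, SE 0.0921, adjusted p 0.00181, limma) and had the smallest p among rising genes. Hoxc6 read 7.31, 7.56 and 6.88 and 9.04, 8.78 and 8.85 (difference 1.64, adjusted p 0.014), and Hoxa10 rose by 0.72 (adjusted p 0.0201) at low signal in both groups. Hoxc13 was unvarying in WT_EC, with an SD of 0.0629. Of 85 other homeobox and patterning genes 3 rose and 1 fell, beside 1.45% and 1.5% of all genes. Emx2, a homeobox gene of forebrain and urogenital tract, read 7.96, 7.10 and 6.65 and 10.12, 9.94 and 10.05 (difference 2.80, adjusted p 0.014). Runx1, a transcription factor of blood formation, rose by 1.64 (adjusted p 0.0182), while Prrx1, a homeobox gene of mesenchyme, fell from 11.61, 11.48 and 11.54 to 9.29, 9.75 and 9.35 (difference -2.08, adjusted p 0.00476).

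Genes of the unfolded protein response and of lysosomes that were called in the fit of the 6 arrays were higher in null_EC, while 2, 1 or 1 of the unfolded protein genes fell without WT_EC 1, 2 or 3. Of 54 genes of the unfolded protein and amino acid response 4 rose (1.45% of all genes did), 29 had null_EC above without overlap (16.7% of all genes did), and the median was 0.47. Without WT_EC 1, 2 or 3 the count of 4 was 11, 12 or 8, where 3.24%, 6.84% or 1.75% of all genes rose. With all 12 arrays in the fit it was 25, where 8.12% of all genes rose. Ddit3 (CHOP), a transcription factor of prolonged stress, read 9.27, 9.33 and 8.27 in WT_EC and 10.60, 10.42 and 10.81 in null_EC (difference 1.66, SE 0.299, adjusted p 0.0468, limma). Ero1b, which drives disulphide formation in the endoplasmic reticulum, read 7.25, 7.15 and 7.41 and 8.50, 8.51 and 8.64 (difference 1.28, adjusted p 0.0058). Atf6, a stress sensor of that organelle, rose by 0.94 (adjusted p 0.0112). WT_EC 3 was the lowest array for Ddit3, well below the other 5. Of 48 lysosome and autophagy genes 3 rose, with a median of 0.27. Neu1, the lysosomal sialidase, rose by 1.07 (adjusted p 0.0205), Mcoln1, a lysosomal calcium channel, by 0.85 (adjusted p 0.024), and Ulk1, the kinase that starts autophagy, by 0.59 (adjusted p 0.0219).

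Ptger3, Adamts16 and Ppip5k1 had the smallest p among the named increases, beside those already given. Ptger3, a receptor for prostaglandin E2, read 6.52, 6.32 and 6.61 in WT_EC and 8.31, 8.32 and 8.14 in null_EC (difference 1.78, SE 0.112, adjusted p 0.00451, limma). Adamts16, a secreted metalloprotease, read 6.94, 6.89 and 6.85 and 8.20, 8.34 and 8.14 (difference 1.33, adjusted p 0.00476). Ppip5k1, a kinase of inositol pyrophosphates, read 8.49, 8.64 and 8.70 and 9.98, 9.90 and 9.94 (difference 1.33, adjusted p 0.00476). All arrays of a group lay close together for these genes, and the groups were apart. Cyp2j6, a cytochrome P450 of the arachidonic acid family, fell by 1.92 (adjusted p 0.0197). Igfbp3, which carries insulin-like growth factors, rose from 11.19, 10.64 and 10.43 to 12.69, 12.71 and 12.72 (difference 1.95, adjusted p 0.0104). Gadd45a, a stress sensor induced by growth arrest, rose by 1.26 (adjusted p 0.014), and Ccn2, connective tissue growth factor, fell by 1.57 (adjusted p 0.0256). Phlda1, of the immediate early list, fell by 1.14 (adjusted p 0.0294), a call lost without WT_EC 3 (adjusted p 0.0527).

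Matrix genes outside the collagens fell in 5 of 75 cases and rose in 1 (median -0.39), beside 1.5% and 1.45% of all genes. Vcan, versican, a large proteoglycan, read 10.89, 9.75 and 10.80 in WT_EC and 7.33, 8.22 and 7.73 in null_EC (difference -2.72, SE 0.367, adjusted p 0.0205, limma). Nid1, nidogen, which links basement membrane networks, read 12.47, 11.54 and 12.71 and 9.63, 9.96 and 9.66 (difference -2.49, adjusted p 0.0163). Prelp, a leucine-rich repeat proteoglycan, read 11.20, 10.39 and 12.23 and 8.38, 8.74 and 8.57 (difference -2.71, adjusted p 0.0351), a call lost without WT_EC 1 (adjusted p 0.052). WT_EC 2 was the lowest WT_EC array for each of these 3. Ccn4 (WISP1), a secreted Wnt target, rose by 0.83 (adjusted p 0.01). Col5a1 was the 1 gene called of 41 collagens and fell by 0.54 (adjusted p 0.0485), a call lost without WT_EC 3 (adjusted p 0.0863). Dpt, dermatopontin, a fibroblast matrix protein, fell by 2.88 (adjusted p 0.0425), a call lost without WT_EC 1 (adjusted p 0.0595). The median over 35 fibroblast markers was 9.12, 8.83 and 10.26 on the WT_EC arrays and 7.90 to 8.06 on the null_EC arrays.

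Called proteases and adhesion genes went in both directions. Of 62 proteases and inhibitors 4 rose and 3 fell, beside 1.45% and 1.5% of all genes. Adam12, a metalloprotease of muscle and mesenchyme, read 11.02, 10.97 and 10.68 in WT_EC and 8.44, 8.91 and 8.42 in null_EC (difference -2.30, SE 0.171, adjusted p 0.00519, limma). Ctsh, a lysosomal cysteine protease, read 10.02, 10.86 and 10.15 and 7.91, 7.80 and 7.83 (difference -2.50, adjusted p 0.00825). Adam22, an ADAM without protease activity, rose by 1.57 (adjusted p 0.0116), and Mmp11, stromelysin-3, by 1.06 (adjusted p 0.0263). Of 57 integrins, cadherins and other adhesion genes 1 rose, near the share of all genes, and 3 fell. Itgb8, the integrin subunit that activates TGF beta, rose by 1.01 (adjusted p 0.0155). Jam2, a junction protein of vessels, fell by 1.79 (adjusted p 0.0302), a call lost without WT_EC 3 (adjusted p 0.0668), Alcam, an adhesion molecule, fell by 1.25 (adjusted p 0.048) and Pcdh9, a protocadherin, fell by 1.07 (adjusted p 0.0207).

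Axon guidance cues, which also pattern vessels, rose in 3 and fell in 2 of 50 cases, beside 1.45% and 1.5% of all genes. Sema3c read 9.37, 9.15 and 9.02 in WT_EC and 10.86, 10.89 and 10.79 in null_EC (difference 1.67, SE 0.113, adjusted p 0.00476, limma). Sema3e, a semaphorin that repels growing vessels, read 10.70, 9.69 and 10.49 and 8.49, 8.56 and 8.46 (difference -1.79, adjusted p 0.024), a call lost without WT_EC 3 (adjusted p 0.0543). These secreted semaphorins thus differed in opposite directions without overlap of groups. Sema3b rose by 1.24 (adjusted p 0.0142), Efna1, an ephrin, by 0.75 (adjusted p 0.0401), and Robo1, a receptor of Slit proteins, fell by 0.92 (adjusted p 0.0197). The Efna1 call was lost without WT_EC 3 (adjusted p 0.0501).

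Of 36 targets of p53, the tumour suppressor, 6 fell (median -0.26), beside 1.5% of all genes. Cd80, a costimulatory ligand for T cells, read 9.71, 8.33 and 9.14 in WT_EC and 6.46, 6.41 and 6.36 in null_EC (difference -2.66, SE 0.330, adjusted p 0.0167, limma). Dram1, a lysosomal membrane protein, read 10.08, 10.09 and 10.32 and 8.77, 8.75 and 8.54 (difference -1.48, adjusted p 0.00533). Ckap2, a microtubule protein also counted in the mitosis list, read 8.73, 8.50 and 9.08 and 6.36, 6.85 and 6.59 (difference -2.17, adjusted p 0.0079). The groups were separate for all 3, with WT_EC 2 lowest of its group for Cd80 and Ckap2. Of 56 genes of oxidative stress and xenobiotic metabolism 3 fell, Fmo2 among them. Cyp7b1, an oxysterol hydroxylase, fell by 1.63 (adjusted p 0.0413), a call lost without WT_EC 3 (adjusted p 0.0781), and Ephx1, microsomal epoxide hydrolase, fell by 0.87 (adjusted p 0.0163).

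None of 54 respiration genes, 61 genes of ribosome biogenesis and Myc targets, 25 of cholesterol synthesis or 48 of TGF beta and BMP signalling was called in limma. At an unadjusted p below 0.05 these lists held 7, 4, 7 and 11 genes, and their medians were 0.06, 0.03, 0.66 and -0.16. Hmgcs1, which makes the precursor of cholesterol, read 9.63, 10.21 and 11.35 in WT_EC and 11.62, 10.86 and 11.40 in null_EC (adjusted p 0.398), with WT_EC 3 inside the null_EC range. Ncl, nucleolin, read 11.998, 11.69 and 11.53 and 11.55, 11.58 and 11.53 (adjusted p 0.56). Ndufa1, a subunit of respiratory complex I, had a difference of 0.22 and Tgfb1 of -0.21, neither called. Of 43 fatty acid genes the binding protein Fabp3 rose by 1.15 (adjusted p 0.0108) and Fabp5 fell by 1.04 (adjusted p 0.0475). Adm was the 1 called gene among 40 of glycolysis and hypoxia, where 2.95% of all genes were called. Without WT_EC 1, 16 of these 40 genes rose, beside 3.24% of all genes. With array weights 6 rose, where 1095 of 19938 genes rose.

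**Figure D5:**
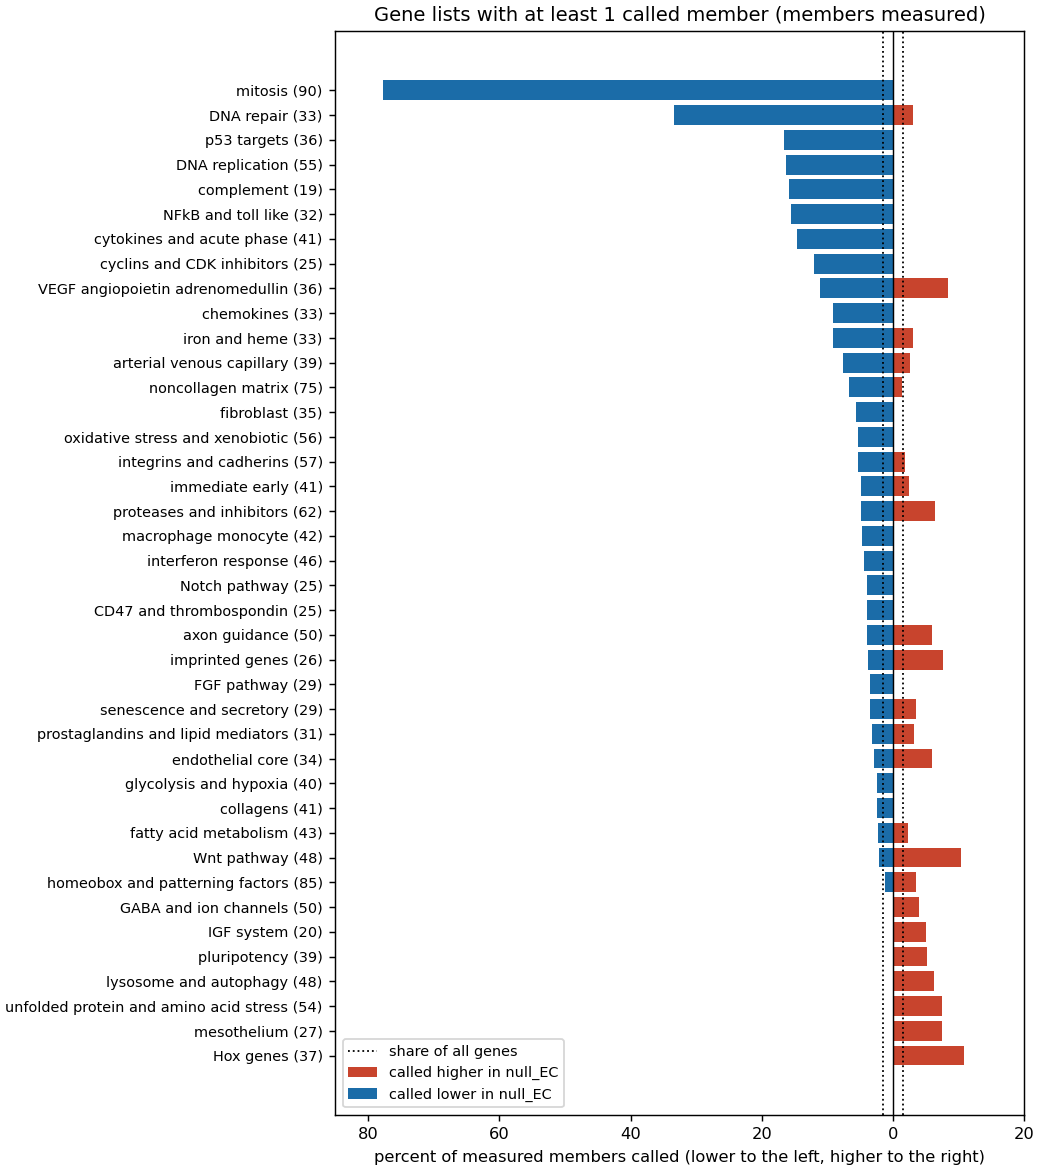
Share of each list's measured genes (number in parentheses) called higher (red, to the right) or lower (blue, to the left) in null_EC, in percent, for lists with at least 1 called gene. Dotted lines mark the shares over all genes, 1.45% higher and 1.5% lower. The mitosis list stands at 77.8% lower.

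What set each WT_EC array apart from the other two was described without a test. On WT_EC 1, 191 genes lay more than 1 log2 unit above and 397 more than 1 below both other WT_EC arrays, where those were within 1 unit of each other. Metalloproteases led the genes above. Mmp13, collagenase-3, read 11.34, 7.25 and 6.88 on the WT_EC arrays and 9.36, 8.84 and 9.01 in null_EC, and Mmp9, gelatinase B, read 10.34, 7.04 and 7.07 and 6.74, 7.09 and 7.12. Mmp10, Stc1, Sprr2e, Nos2, Car6 and H2-M1 also belonged to the 8 genes furthest above. Below were Gda, guanine deaminase (7.87, 11.28 and 11.29 in WT_EC and 11.14, 11.23 and 11.19 in null_EC), Cyp39a1, Sesn1, Bmp4, Pkhd1l1, Adamts5, Pla2g7 and Ogn. Bmp4, a bone morphogenetic protein, read 8.02, 11.36 and 11.18 in WT_EC, so that WT_EC 2 and 3 were at the null_EC level (11.45, 11.39 and 11.34).

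On WT_EC 2, 237 genes lay above and 173 below the other 2 arrays in the same sense. The genes furthest above were Npy1r, Vnn3, Iigp1, Igf2, Corin, H2-T24, Ms4a4c and Pax3. Iigp1, an interferon-induced GTPase, read 7.01, 10.36 and 7.08 in WT_EC and 5.50, 5.41 and 5.28 in null_EC. Pax3, a transcription factor of neural crest and muscle, read 7.24, 10.34 and 7.24 and 10.41, 10.32 and 10.32, so WT_EC 2 matched null_EC there. The genes furthest below were Gpx3, Ccl3, Serping1, Mfap5, Aldh1a2, Mmp3, Ccbe1 and Pla1a. Gpx3, a secreted glutathione peroxidase, read 12.43, 6.51 and 12.95 and 6.87, 6.81 and 6.77, and Ccl3, a macrophage chemokine, 11.71, 6.11 and 11.38 and 6.46, 6.57 and 6.51. In both, WT_EC 2 lay at the null_EC level or below while the other WT_EC arrays lay more than 4 log2 units higher.

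On WT_EC 3, 324 genes lay above and 37 below. The 8 furthest above were Atp6v0d2, Fcgr4, Mrc1, Hpgd, Rgs1, Limch1, Ms4a8a and F13a1. Atp6v0d2, a proton pump subunit of osteoclasts and macrophages, read 5.31, 4.87 and 10.58 in WT_EC and 5.08, 4.96 and 5.08 in null_EC. Mrc1, the mannose receptor of macrophages, read 6.22, 5.61 and 10.62 and 5.72, 5.71 and 5.71. The 8 furthest below were Prl2c5, Htr1b, Rnd1, Zbp1, Btc, Oasl1, Saa3 and Tnip3. Saa3, an acute-phase protein, read 12.66, 13.16 and 11.15 and 11.23, 10.92 and 11.22, which put WT_EC 3 among the null_EC arrays. Counted against null_EC, genes more than 1 log2 unit above every null_EC array numbered 721, 510 and 871 on WT_EC 1, 2 and 3, and those below 837, 212 and 249. None of the genes named for single arrays was called between the groups.

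Housekeeping genes were steady. Their array medians ran from 11.58 to 11.66, and none of 33 was called in limma, with 7 at an unadjusted p below 0.05. Actb, beta actin, read 13.97, 13.81 and 13.80 in WT_EC and 13.74, 13.79 and 13.74 in null_EC. Lists of lung epithelium (32 genes), smooth muscle and pericytes (27), keratins (27), lymphatic endothelium (13), white blood cells of other kinds (26) and red cells and platelets (9) also had no call in limma. At an unadjusted p below 0.05 they held 2, 2, 4, 1, 0 and 0 genes. Sftpa1, a surfactant protein of the alveoli, read 8.26, 8 and 8.05 and 7.82, 7.94 and 8.04. Acta2, smooth muscle actin, read 13.20, 12.90 and 12.67 and 12.77, 13.17 and 12.79, without separation of the groups. Differences were -0.39 for Prox1, the lymphatic transcription factor, -0.12 for Cd3e of T cells, -0.69 for Alas2 of red cells and 0.12 for Krt4, a keratin, and none was called.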

How the data were processed

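RNA of the 6 samples had been hybridised to 1-colour Affymetrix arrays, 1 per sample, from 300 ng of total RNA. The log2 values deposited by the authors had been made with RMA in Affymetrix Expression Console 1.2.1, per the submitters' processing notes. The genome build is not given in the sources used here. The labels' protocol names a human array, but the probe sets match the mouse platform's gene table. Of 35556 probe sets, 21789 have 1 gene, 1621 several and 12146 none. The brightest probe set (mean over 12 arrays) was kept where a gene had several (999 genes), which left 19938 genes. Of these, 19856 matched RefSeq by gene identifier.

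The 2 groups were compared with limma 3.58.1 in R 4.3.3 (lmFit and eBayes, 2-sided, Benjamini-Hochberg adjustment over all genes), after the code was tested on simulated data. Named genes are the 12 largest called changes and the 6 smallest p in each direction, up to 3 called members per list and direction, and the 8 genes furthest above and below on each WT_EC array. Predicted genes, receptor families such as olfactory ones, small RNAs and histones were left out. The members and the 53 lists were chosen with earlier results of these data known.

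Same-numbered arrays did not deviate together (correlations of -0.0849, -0.0479 and -0.116 between deviations from group means). These values gave no sign of pairing but cannot exclude a shared preparation, on which the labels are silent. Alternatives were all 12 arrays in the fit, array or group weights, a trended robust prior, a filter on dim genes, every probe set, quantile normalization, a housekeeping shift, the replicate number as a block and each array left out.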

Additional observations from a re-analysis of the deposited data

How the results depend on the processing

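All 117 called genes named by rule kept their direction under all 15 alternatives. Several alternatives change only the error and return the same difference. Groups that do not overlap cannot change sign when 1 array is left out. The genes were also chosen by their calls on these values, so the kept direction is no separate support. The median difference of all genes, 0.03, was -0.02 after quantile normalization, and the median of 13 of 53 lists changed sign under at least 1 alternative, among lists with a median no further than 0.094 from 0. The count of called genes was 2615 with all 12 arrays, 2172 with array weights, 36 with the replicate block and 3 to 2308 with 1 array left out. Those at least 2-fold apart numbered 652, 840, 36 and 3 to 799 in that order. Higher genes numbered 1619, 1095, 10 and 1 to 1363, and lower genes 996, 1077, 26 and 2 to 945. The lower share of the calls was 50.9%, against 38.1% with 12 arrays and 40.9% without WT_EC 2. It was larger in other fits, as at 73.1% without null_EC 2, 72.2% with the replicate block and 57.2% after the housekeeping shift. Mitosis genes that fell numbered 4 with the replicate block, of 70, and 0 to 80 with 1 array left out. The replicate block kept 23 of the 117 named calls; the arrays share only a number, and no sign of pairing was seen. Of these calls, 108 were kept with 1 weight per group, 112 with the trended prior, 113 with every probe set, 115 after quantile normalization and 110 after the housekeeping shift. Cd47 passed with 12 arrays (-1.09, adjusted p 0.0228) and array weights (-1.22, adjusted p 0.0144) and ranged from -1.50 to -0.85 with 1 array left out. Myc passed with the same alternatives (-0.66, adjusted p 0.00473, and -0.60, adjusted p 0.0247) and ranged from -0.75 to -0.51. Fits with 1 array fewer have fewer samples. The cause of the other changes was not tested.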

Other observations

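Of 26 imprinted genes 2 rose and 1 fell, beside 1.45% and 1.5% of all genes. Ndn, necdin, a growth suppressor of neurons, read 10.94, 9.40 and 11.08 in WT_EC and 7.69, 7.85 and 7.54 in null_EC (difference -2.78, SE 0.444, adjusted p 0.0325, limma), and its call was lost without WT_EC 3 (adjusted p 0.0594). Ppp1r9a, neurabin, rose by 1.11 (adjusted p 0.0177), and Impact, a regulator of the amino acid stress kinase GCN2, by 0.74 (adjusted p 0.0374), a call lost without WT_EC 3 (adjusted p 0.0673). Of 39 genes of the pluripotency network 2 rose. Tfcp2l1, a transcription factor of naive stem cells, read 7.45, 8.23 and 8.45 in WT_EC and 9.94, 9.70 and 9.82 in null_EC (difference 1.78, adjusted p 0.0248), against 10.60 in ESC. Alpl, tissue-nonspecific alkaline phosphatase, read 8.10, 7.74 and 7.63 and 9.14, 9.96 and 9.29 (difference 1.64, adjusted p 0.0255), against 11.40 in ESC, and its call was lost without WT_EC 3 (adjusted p 0.0573). Of the 39 genes, 32 had low signal in both groups.

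Of 33 iron and heme genes 1 rose and 3 fell, beside 1.45% and 1.5% of all genes. Cybrd1, a ferric reductase, read 7.67, 8.09 and 8.83 in WT_EC and 10.23, 10.10 and 9.96 in null_EC (difference 1.90, SE 0.289, adjusted p 0.0279, limma). Heph, the copper oxidase that loads exported iron, read 8.18, 8.10 and 8.88 and 6.71, 6.55 and 6.46 (difference -1.82, adjusted p 0.0155). Lcn2 and Steap4 were the other called genes of this list. Gpnmb, a glycoprotein of macrophages and pigment cells, fell from 10.67, 11.28 and 11.94 to 9.41, 8.83 and 9.29 (difference -2.12, adjusted p 0.0315) and averaged 10.92 in null_EB. Hmgb2, a chromatin protein that is lost in senescent cells, fell by 1.30 (adjusted p 0.0255), 1 of 2 called genes among 29 of the senescence list.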
